A study of Mus musculus with 12 samples.

Results

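The mRNAs described here come from 8 mouse genes that encode the giant scaffold proteins of the sarcomere and proteins of its M-band and thick filament. They are *Ttn* and *Neb*, the myomesins *Myom1*, *Myom2* and *Myom3*, and the myosin-binding proteins *Mybpc1*, *Mybpc2* and *Mybph*. They were chosen by name, through the NCBI Gene ID that maps to each symbol, and are 8 of 27179 genes in the count table. All 8 passed the filter on low counts, which left 15502 genes for testing.

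The study examined what forced expression of *FRAIL1*, a human long noncoding RNA, does to mouse muscle. RNA was taken from 12 tibialis anterior (TA) muscles of 6 male, wild-type C57BL/6N mice, obtained at between 6 and 8 weeks of age. In each mouse 1 TA was electroporated with 10 μg of the empty plasmid pcDNA3 (6 Control muscles) and the contralateral TA with 10 μg of the same plasmid carrying full-length human *FRAIL1* behind the cytomegalovirus promoter (6 *FRAIL1* muscles), and both were frozen at day 7. Every muscle, Control included, therefore went through hyaluronidase injection, DNA injection and electric pulses, and there was no untouched muscle. Plasmid uptake differs from fiber to fiber, and RNA was extracted from the tissue, so each value is a sum over transfected fibers, untransfected fibers and the other cells between them. Fewer cells of a type and less RNA per cell cannot be told apart in such samples.

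In a muscle fiber, titin (*Ttn*) spans from the Z-disc to the M-band, acts as a molecular spring and carries the thick filament, while nebulin (*Neb*) runs along the thin filament and sets its length. Myomesins cross-link titin and myosin in the M-band: *Myom1* is made in all striated muscle, *Myom2*, the M-protein, mainly in fast fibers, and *Myom3* in slow and intermediate fibers. *Mybpc1* encodes the slow and *Mybpc2* the fast skeletal form of myosin-binding protein C. This protein lies along the thick filament and limits the reach of myosin heads. *Mybph* encodes the smaller, related myosin-binding protein H.

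The number of reads assigned to genes ranged from 45018389 to 59309210 in Control muscles and from 44848322 to 60527385 in *FRAIL1* muscles. Levels are given as CPM, the usual scaling of counts to a common library size, here with edgeR's TMM factors, whose range was 0.935 to 0.983 for Control and 0.965 to 1.19 for *FRAIL1*. Mitochondrially encoded genes accounted for 10.6 ± 0.846% of reads in Control against 8.73 ± 1.35% in *FRAIL1* muscles (SD, n = 6). The first principal component of all tested genes ran from -27.4 to -11.3 for Control and from -5.52 to 61.4 for *FRAIL1*, where muscle 5 held the highest score and the next was 26.8. Counts of calls that moved by over 1.5 times without that muscle are also given without it. The tissue's own genes were abundant, with skeletal actin *Acta1* at 34540 CPM in Control muscles, while the atrial light chain *Myl7* had 0 counts in all 12 muscles.

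Sequence upstream of the annotated starts is shown for the 2 members that rose and for titin, the most heavily counted of the members that had lower means. The sequences are those of RefSeq on GRCm38.p6, of which 6 of the 8 members were matched and *Neb* and *Myom2* are named only. The 250 bases before each start are printed 5′ to 3′ on the gene's own strand, and capitals mark a match to the consensus of MEF2, a muscle transcription factor. *Ttn* is read from the minus strand at chr2:76982548-76982797, *Myom3* from the plus strand at chr4:135759465-135759714, and *Mybph* from the plus strand at chr1:134193198-134193447. The *Myom3* stretch lies inside the gene span given below, which begins at base 135758800, so it precedes a start within that span. Those of *Ttn* and *Mybph* overlap only the first bases of their spans.
Ttn: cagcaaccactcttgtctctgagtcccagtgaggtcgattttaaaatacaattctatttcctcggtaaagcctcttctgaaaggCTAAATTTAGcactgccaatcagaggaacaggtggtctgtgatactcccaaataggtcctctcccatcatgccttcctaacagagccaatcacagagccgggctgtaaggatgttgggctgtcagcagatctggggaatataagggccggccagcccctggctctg
Myom3: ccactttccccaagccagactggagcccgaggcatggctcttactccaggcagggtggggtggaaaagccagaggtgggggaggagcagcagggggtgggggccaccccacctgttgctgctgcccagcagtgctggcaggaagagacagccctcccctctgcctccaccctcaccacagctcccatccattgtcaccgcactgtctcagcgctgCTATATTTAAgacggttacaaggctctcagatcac
Mybph: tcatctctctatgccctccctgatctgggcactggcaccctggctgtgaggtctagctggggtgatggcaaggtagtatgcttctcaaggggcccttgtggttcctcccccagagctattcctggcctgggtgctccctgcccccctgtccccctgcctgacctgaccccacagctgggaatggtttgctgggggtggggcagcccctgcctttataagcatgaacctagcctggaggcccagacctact

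On either strand the MEF2 consensus was found 1 time before *Ttn*, from base -166, and 1 time before *Myom3*, from base -35, counted from the start. The *Mybph* sequence held none and held 1 TATA box (TATAAA). Of 32851 such 250-base sequences of mouse genes, 2.92% held the MEF2 consensus and 12.4% the TATA box. The E-box (CANNTG), which myogenic factors such as MyoD bind, was present 1 time in each of the 3 sequences and is present in 66.2% of all. The MCAT element (CATTCC), which 12.6% of all sequences hold, was found 1 time before *Mybph* and not before *Ttn* or *Myom3*. Of the matched members not printed, *Mybpc2* also held 1 MCAT element. *Myom1*, *Mybpc1* and *Mybpc2* held no MEF2 consensus. These are matches of letters in short windows, and members on both sides of the comparison held them.

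Of the 8 genes, *Mybph* and *Myom3* rose about 2-fold in *FRAIL1* muscles, *Ttn*, *Neb* and *Myom1* had lower means and were lower in 6 of 6 mice without passing the test, *Mybpc2* was lower in 5 of 6 mice, and *Myom2* and *Mybpc1* lay close to their Control levels. Genes were compared with edgeR's quasi-likelihood test, and p-values were adjusted over the 15502 genes tested (Benjamini-Hochberg, threshold 0.05). At that threshold 2 of the 8 members were called, both higher, against 6.28% of all genes tested (4.43% higher, 1.85% lower). With only 8 genes, a count of 2 is a description of these genes. A lower value in all 6 mice was seen for 11.7% of the genes tested. Among other genes with a mean of 100 CPM or more, it was seen for 12 of 34 with 15 kb of exon or more, the class of *Ttn* and *Neb*. From 10 to 15 kb, the class of *Myom1*, it was seen for 32 of 86. Left and right muscles were matched into mice by their replicate number, 1 to 6.

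*Mybph* (Gene ID 53311; GRCm38 chromosome 1, 134193418 to 134201237, plus strand, 10 exons) was the member with the smallest p-value. Control muscles held 62.1 CPM at the lowest, 104 CPM at the median and 119 CPM at the highest. In *FRAIL1* muscles the corresponding levels were 139, 210 and 278 CPM. All *FRAIL1* muscles thus lay above all Control muscles, as was the case for 3.12% of all genes tested (4.88% with those whose groups separated in either direction). The mean went from 99.4 ± 20.04 to 208 ± 47.3 CPM (SD, n = 6 each), a log2 fold change of 1.06 with a standard error of 0.171 (2.09-fold, edgeR adjusted p = 0.00681). By mouse the log2 difference was 1.55, 1.16, 0.93, 0.94, 0.96 and 0.81 for mice 1 to 6, so no mouse fell apart from the others. *FRAIL1* muscle 5, which stood out over all genes, was not the highest for this gene, and without it the log2 fold change was 1.03 (edgeR adjusted p = 0.0139).

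The exons of *Mybph* overlap those of *Adora1*, the adenosine A1 receptor gene on the opposite strand, over 49.9% of their length. The strand setting of the counting is not given in the sources used here, so reads in the shared stretch could count for either gene or for neither. *Adora1* itself was counted at 2.85 ± 0.785 CPM in Control and 5.13 ± 1.48 CPM in *FRAIL1* muscles (SD, n = 6), which was 2.87% and 2.47% of the *Mybph* level. Its log2 fold change was 0.85 (edgeR adjusted p = 0.0314).

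*Myom3* (Gene ID 242702; chromosome 4, 135758800 to 135815571, plus strand, 37 exons) was the least abundant member in Control muscles. There it measured 27.1, 38.3 and 52.7 CPM at the lowest, median and highest. The *FRAIL1* muscles measured 54.7, 81.1 and 184 CPM, again all above every Control muscle. The mean rose from 40.0 ± 10.8 to 93.3 ± 46.7 CPM (SD, n = 6 each), with a log2 fold change of 1.22 and a standard error of 0.289 (2.33-fold, edgeR adjusted p = 0.0336). With the mouse as a block the log2 fold change was 1.14 and the call was lost (edgeR adjusted p = 0.0704), in a fit that called 14.1% of all genes tested, 7.48% higher and 6.62% lower.

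The size of the *Myom3* difference varied widely among mice. Its log2 difference was 1.83, 1.0, 0.06, 0.97, 2.38 and 0.62 for mice 1 to 6. Mouse 3 hardly differed between legs, whereas mouse 5 held the value of 184 CPM, far above the next at 96.6 CPM. Without *FRAIL1* muscle 5 the log2 fold change was 0.91 and still past the threshold (edgeR adjusted p = 0.0315), and without both muscles numbered 5 it was 0.87 and not past it (edgeR adjusted p = 0.0603). Leaving out any 1 muscle kept the call in 6 of 12 fits. It was lost without Control muscle 1, 2, 4 or 5 and without *FRAIL1* muscle 1 or 4, with edgeR adjusted p-values between 0.0527 and 0.0689.

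**Figure D1:**
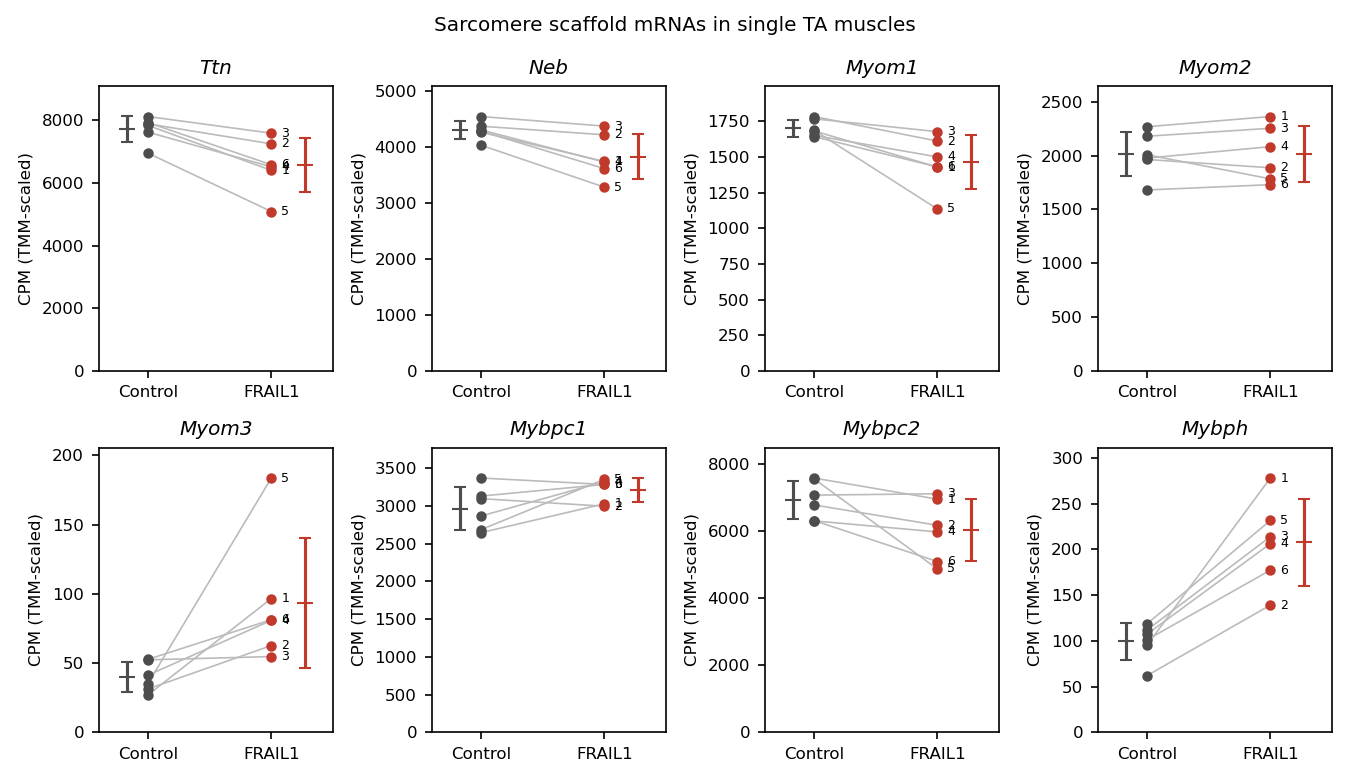
CPM (TMM-scaled, y axis from 0 in each panel) of each of the 8 genes in single TA muscles, grey for Control and red for *FRAIL1*, with a line joining the muscles of 1 number (given beside the red points) and the mean ± SD of each group (n = 6) at the sides. The groups do not overlap for *Myom3* and *Mybph*, and in *Ttn*, *Neb* and *Myom1* every line falls.

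Titin and nebulin mRNAs were the giants of the set. *Ttn* (Gene ID 22138; chromosome 2, 76703980 to 76982557, minus strand, 345 exons, 116.8 kb of exon sequence) measured 6949, 7858 and 8117 CPM at the lowest, median and highest in Control muscles. In *FRAIL1* muscles it measured 5086, 6543 and 7585 CPM. The groups overlapped, with 4 of the 6 *FRAIL1* muscles below every Control muscle and *FRAIL1* muscles 2 and 3 within the Control range.

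The mean of *Ttn* went from 7721 ± 411 to 6567 ± 863 CPM (SD, n = 6 each), with a log2 fold change of -0.23 and a standard error of 0.0895. It did not pass the threshold (edgeR adjusted p = 0.110), nor with the mouse as a block (edgeR adjusted p = 0.0503). DESeq2 with the mouse as a block called it (DESeq2 adjusted p = 0.00241), in a fit that called 2898 of all genes tested. The log2 difference was -0.29, -0.12, -0.10, -0.23, -0.45 and -0.27 for mice 1 to 6. A lower value in all 6 mice was seen for 11.7% of the genes tested. It was more common among other genes with a mean of 100 CPM or more. These numbered 12 of 34 at 15 kb of exon or more, 32 of 86 from 10 to 15 kb and 160 of 350 from 5 to 10 kb. From 2 to 5 kb they were 187 of 523, and under 2 kb 28 of 149. Without *FRAIL1* muscle 5 the log2 fold change of *Ttn* was -0.17 (edgeR adjusted p = 0.123), and without *FRAIL1* muscle 3 it was -0.28 and past the threshold (edgeR adjusted p = 0.0479).

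*Neb* (Gene ID 17996; chromosome 2, 52136640 to 52338798, minus strand, 166 exons, 26.58 kb of exon sequence) behaved much as *Ttn*. It measured 4031, 4293 and 4543 CPM at the lowest, median and highest in Control muscles and 3282, 3735 and 4372 CPM in *FRAIL1* muscles. The ranges overlapped, with 4 *FRAIL1* muscles below every Control muscle. The mean went from 4299 ± 166 to 3826 ± 402 CPM (SD, n = 6 each). Its log2 fold change of -0.17 (standard error 0.0763) did not pass the test (edgeR adjusted p = 0.167), and the difference by mouse lay between -0.30 in mouse 5 and -0.05 in mouse 2. It was -0.13 without *FRAIL1* muscle 5 (edgeR adjusted p = 0.238). With the mouse as a block edgeR did not call *Neb* (adjusted p = 0.108), whereas DESeq2 did (adjusted p = 0.0220).

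Of the M-band genes, *Myom1* (Gene ID 17929; chromosome 17, 71003332 to 71126856, plus strand, 46 exons) was low in the same muscles. Control muscles measured 1642, 1685 and 1783 CPM at the lowest, median and highest, and *FRAIL1* muscles 1135, 1465 and 1677 CPM. Only *FRAIL1* muscle 3 reached the Control range, and the Control muscles lay within a narrow band.

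The *Myom1* mean went from 1702 ± 59.5 to 1464 ± 189 CPM (SD, n = 6 each), a log2 fold change of -0.22 with a standard error of 0.0840 (edgeR adjusted p = 0.112). It was lower in 6 of 6 mice, by between 0.08 and 0.57 on the log2 scale, with the largest difference in mouse 5. Its log2 fold change was -0.16 without *FRAIL1* muscle 5 (edgeR adjusted p = 0.120). With the mouse as a block edgeR did not call *Myom1* (adjusted p = 0.0668), whereas DESeq2 did (adjusted p = 0.0153).

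*Myom2* (Gene ID 17930; chromosome 8, 15057653 to 15133420, plus strand, 40 exons) measured 1681, 1992 and 2268 CPM at the lowest, median and highest in Control muscles and 1730, 1985 and 2363 CPM in *FRAIL1* muscles. Both groups covered nearly the same range, and the means were 2013 ± 203 and 2017 ± 258 CPM (SD, n = 6 each). Its log2 fold change was 0.00 (standard error 0.0942, edgeR adjusted p = 0.988), it was higher in 4 of 6 mice, and its sign changed with the scaling. Of the 3 myomesin mRNAs, *Myom3* therefore rose, *Myom1* had a lower mean without passing the test, and *Myom2* had nearly the same mean in both groups.

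The C-type myosin-binding proteins showed smaller differences than *Mybph*. The slow form *Mybpc1* (Gene ID 109272; chromosome 10, 88518279 to 88605229, minus strand, 32 exons) measured 2644, 2979 and 3367 CPM at the lowest, median and highest in Control and 2994, 3282 and 3351 CPM in *FRAIL1* muscles. The *FRAIL1* values lay inside the Control range and closer together. The means were 2964 ± 282 and 3209 ± 156 CPM (SD, n = 6 each), the log2 fold change was 0.11 (standard error 0.0741, edgeR adjusted p = 0.329), and it was higher in 4 of 6 mice.

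The fast form *Mybpc2* (Gene ID 233199; chromosome 7, 44501699 to 44524715, minus strand, 28 exons) measured 6310, 6932 and 7588 CPM in Control and 4875, 6080 and 7119 CPM in *FRAIL1* muscles, 4 of them below every Control muscle. Its mean went from 6941 ± 572 to 6035 ± 925 CPM (SD, n = 6 each), with a log2 fold change of -0.20 and a standard error of 0.101 (edgeR adjusted p = 0.205). It was lower in 5 of 6 mice, and mouse 5 had the largest difference, at -0.63 on the log2 scale. The log2 fold change was -0.15 without *FRAIL1* muscle 5 (edgeR adjusted p = 0.324). With the mouse as a block neither edgeR (adjusted p = 0.133) nor DESeq2 (adjusted p = 0.0522) called *Mybpc2*.

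**Figure D2:**
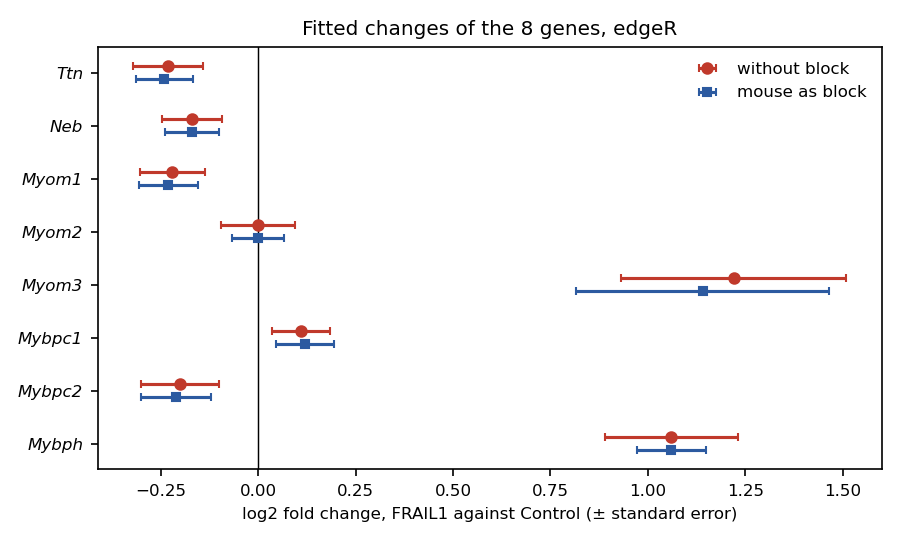
Fitted log2 fold change of each gene, *FRAIL1* against Control (x axis, points, with bars of 1 standard error), without a block (red circles) and with the mouse as a block (blue squares). *Myom3* and *Mybph* lie above 1 in both fits, *Myom2* lies at 0, and the bars of *Ttn*, *Neb*, *Myom1* and *Mybpc2* lie wholly below 0.

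Overlap with other genes was small for the remaining members. It covered 5.57% of the exons of *Mybpc1*, 5.32% of *Mybpc2*, 1.98% of *Myom1*, 0.388% of *Ttn* and 0.169% of *Neb*, each by a gene on the opposite strand, and none of *Myom2* or *Myom3*. The smallest number of reads for any member in any muscle was 1331, for *Myom3*, and *Ttn* had between 272039 and 442702.

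Levels of different genes were compared per kilobase of exon sequence, since long transcripts collect more reads. On that scale *Mybpc2* was the most abundant member in Control muscles, at 1922 ± 158 CPM per kb (SD, n = 6). *Mybpc1* followed at 655 ± 62.2 CPM per kb and *Myom2* at 227 ± 23.0 CPM per kb. *Myom1* at 163 ± 5.69 and *Neb* at 162 ± 6.25 CPM per kb did not differ beyond their spread, and *Myom1* was the higher of these in 2 of 6 Control muscles. This order depends on the length used, and with the longest transcript of each gene in place of all exons *Myom1* was above *Neb* in all 6.

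*Ttn* came next, at 66.1 ± 3.52 CPM per kb (SD, n = 6), below 5 of the other members, although it collected the most reads of the 8 in 5 of 6 Control muscles. *Mybph* measured 42.7 ± 8.60 and *Myom3* 6.63 ± 1.79 CPM per kb in Control muscles, and every Control muscle kept this order. The *Mybph* values divide by its full exon length, 49.9% of which overlaps *Adora1*. If reads in that stretch counted for neither gene, these values are too low. The order of *Mybph* and *Ttn* in Control muscles is therefore uncertain. In *FRAIL1* muscles *Mybph* measured 89.2 ± 20.3 CPM per kb and lay above *Ttn*, at 56.2 ± 7.38 CPM per kb, in 5 of 6 muscles, although the ranges of these genes overlapped. *Myom3* stayed the lowest in every *FRAIL1* muscle, at 15.5 ± 7.73 CPM per kb.

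Ratios of counts between 2 members within a muscle do not depend on how libraries are scaled. For 5 such ratios, chosen for the biology of each pair, the group means of the log2 ratio were compared with a two-sided exact permutation test over all ways to assign 6 of 12 muscles to a group, adjusted over the 5 ratios. The smallest p-value that this test can give is 0.00216. All 5 ratios moved in 1 direction in 6 of 6 mice, for which an exact two-sided sign-flip test over mice gives p = 0.0313 for each ratio, the smallest it can give. The ratios are not separate observations, since *Mybpc2* and *Myom2* recur in them as denominators. They rest on the same counts as the comparisons of single genes, and the genes were chosen with earlier results of these data known.

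The ratio of *Mybph* to *Mybpc2*, H-type against fast C-type myosin-binding protein, went from -6.15 ± 0.339 to -4.88 ± 0.367 on the log2 scale (SD, n = 6 muscles each). The groups did not overlap, and the difference of 1.27, or 2.42-fold, had an exact permutation p of 0.00216 (adjusted p = 0.0108). The ratio of *Myom3* to *Myom2*, the myomesin of slow and intermediate fibers against that of fast fibers, went from -5.69 ± 0.485 to -4.54 ± 0.699. It rose by 1.15, or 2.21-fold (exact permutation p = 0.00433, adjusted p = 0.0108), with overlapping ranges since *FRAIL1* muscle 3 lay inside the Control range. Without *FRAIL1* muscle 5 the 2 differences were 1.18 and 0.89.

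The other 3 ratios moved less. The ratio of slow *Mybpc1* to fast *Mybpc2* went from -1.23 ± 0.236 to -0.90 ± 0.269 on the log2 scale, a difference of 0.33 (exact permutation p = 0.0519, adjusted p = 0.0541). *Myom1* to *Myom2* went from -0.24 ± 0.137 to -0.46 ± 0.198, a difference of -0.23 (exact permutation p = 0.0541, adjusted p = 0.0541). *Neb* to *Ttn* went from -0.84 ± 0.0342 to -0.77 ± 0.0768, a difference of 0.07 (exact permutation p = 0.0476, adjusted p = 0.0541). None of these 3 passed the threshold after adjustment over the ratios. The *Neb* to *Ttn* difference amounted to 1.05-fold and was the smallest of the 5. Leaving out *FRAIL1* muscle 5 brought the 3 differences to 0.26, -0.19 and 0.040.

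**Figure D3:**
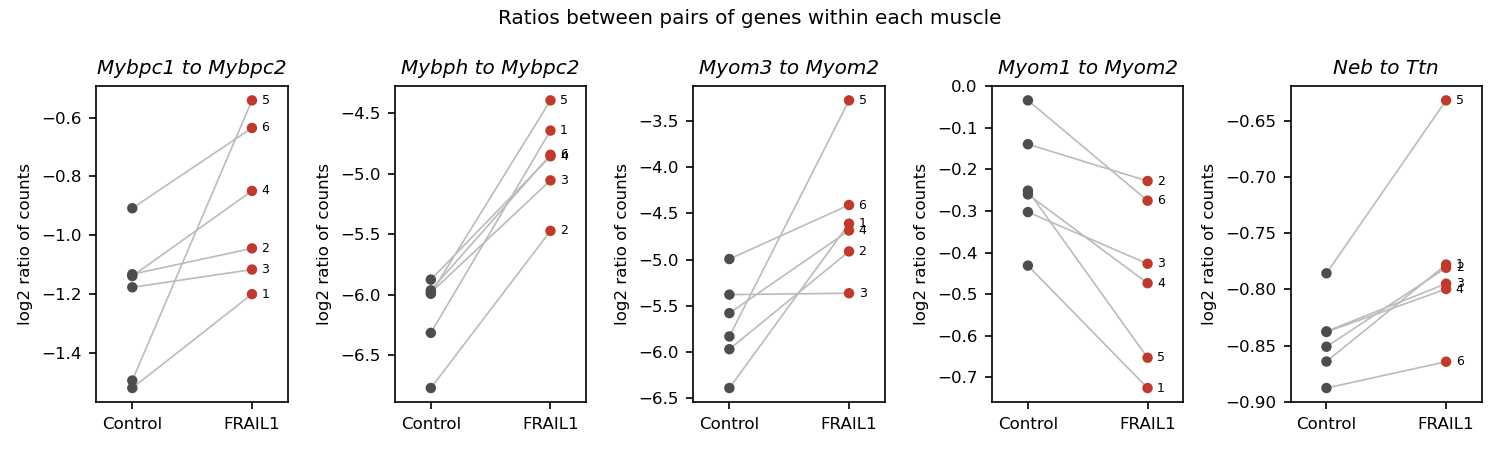
Log2 ratio of the counts of 2 members within a muscle (y axes, not starting at 0), for Control (grey) and *FRAIL1* (red) muscles, with a line joining muscles of 1 number (given beside the red points). Every line rises except in *Myom1* to *Myom2*, where every line falls, and *FRAIL1* muscle 5 is the highest in each ratio but that one.

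Across the 12 muscles *Neb* and *Myom1* followed *Ttn* most closely among the members. The correlations here are descriptions of log2 CPM over 12 muscles that share the group difference, the scaling and the depth of each library. Pearson's r was 0.96 between *Neb* and *Ttn*, 0.96 between *Myom1* and *Ttn* and 0.94 between *Myom1* and *Neb*. It was 0.23 between *Myom2* and *Ttn*. *Mybph* and *Myom3* had an r of 0.81, *Myom1* and *Myom3* an r of -0.90, and the C-type genes *Mybpc1* and *Mybpc2* an r of -0.64.

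The 3 tested genes most like each member by the same measure were named by rule. For *Ttn* they were *Dcaf8*, *Lgalsl* and *Zfp106* (r of 0.99 each), for *Neb* they included *Ibtk* and *Zfp532* (0.98 each), and for *Myom1* *Ankrd40*, *Camk2g* and *Dnajc27* (0.99 each). *Myom2* was most like *Scly*, *Pnpla3* and *Sh2b1* (0.93, 0.91 and 0.88). *Myom3* was most like *Haghl*, *Atp1b3* and *Casq2* (0.96 each), the last of which encodes calsequestrin 2, the calcium store protein of slow and cardiac fibers. *Mybpc1* was most like *Gm7931*, *2600006K01Rik* and *Fam120c* (0.94, 0.91 and 0.89), and *Mybpc2* like *Gpd1*, *Cby1* and *St3gal3* (0.98, 0.97 and 0.97). The genes most like *Mybph* were *Pycr1*, *Pdlim3* and *Ankrd1* (0.94, 0.93 and 0.93), of which the latter pair encode a Z-disc LIM protein and an ankyrin-repeat protein that binds titin in the I-band.

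Partners of these proteins were counted in lists by the place where they meet. Among all genes tested the median log2 fold change was 0.010, and 6.28% were called. Of the same genes 27.7% had an unadjusted p under 0.05, and DESeq2 called 14.4%, limma voom 11.8% and edgeR with the mouse as a block 14.1%, while edgeR without *FRAIL1* muscle 5 called 6.22% of those it tested. Counts in lists below are to be read against these shares. Of 15 tested Z-disc genes that anchor titin and nebulin, 1 was called higher and 0 lower, with a median of -0.08. The called gene was *Pdlim3* (543 to 726 CPM, log2 fold change 0.42, edgeR adjusted p = 0.00889). With the mouse as a block 1 gene was higher and 1 lower.

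Of 8 I-band partners of titin, 1 was higher and 1 lower, with a median of -0.10. *Ankrd1* rose from 72.7 to 204 CPM (log2 fold change 1.49, edgeR adjusted p = 0.00485), and *Smyd2*, a methyltransferase that associates with titin there, fell from 284 to 208 CPM (log2 fold change -0.45, edgeR adjusted p = 0.0344). With the mouse as a block 3 were higher and 2 lower, and without *FRAIL1* muscle 5 there were 1 and 2.

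The 13 M-band partners had the lowest median of the sarcomere lists, at -0.19, and 10 of them had lower means in *FRAIL1* muscles. *Obsl1*, which links titin and myomesin, rose (log2 fold change 0.35, edgeR adjusted p = 0.0424), as did *Fhl2* at a low level of 1.61 and 2.49 CPM (0.63, edgeR adjusted p = 0.0254). *Ckm*, muscle creatine kinase, which binds the M-band, fell from 12440 to 9556 CPM (log2 fold change -0.38, edgeR adjusted p = 0.0482). Without *FRAIL1* muscle 5 the list held 1 higher and 4 lower calls and its median was -0.14, and with the mouse as a block it held 2 higher and 4 lower calls. The M-band thus held members and partners on either side of their Control level.

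The edgeR test called none of 13 thin-filament and nebulin-related genes (median -0.01), 10 thick-filament genes (median -0.11) and 10 splicing regulators of the giant mRNAs (median -0.07). In these lists 7, 3 and 4 genes had an unadjusted p under 0.05, DESeq2 called 5, 1 and 2 genes, and limma voom called 3, 1 and 2. The smallest p-values in these lists belonged to tropomyosin *Tpm1* (log2 fold change -0.28, edgeR adjusted p = 0.0515), the fast myosin heavy chain *Myh4* (-0.43, edgeR adjusted p = 0.0548) and *Rbm20*, a factor that controls titin splicing (-0.28, edgeR adjusted p = 0.0501). With the mouse as a block these lists held 2 higher and 1 lower, 0 higher and 2 lower, and 0 higher and 3 lower calls, and without *FRAIL1* muscle 5 each of the first pair held 1 lower call and the splicing list none. The counts are per gene, so the splicing of *Ttn* or *Neb* was not analysed here.

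**Figure D4:**
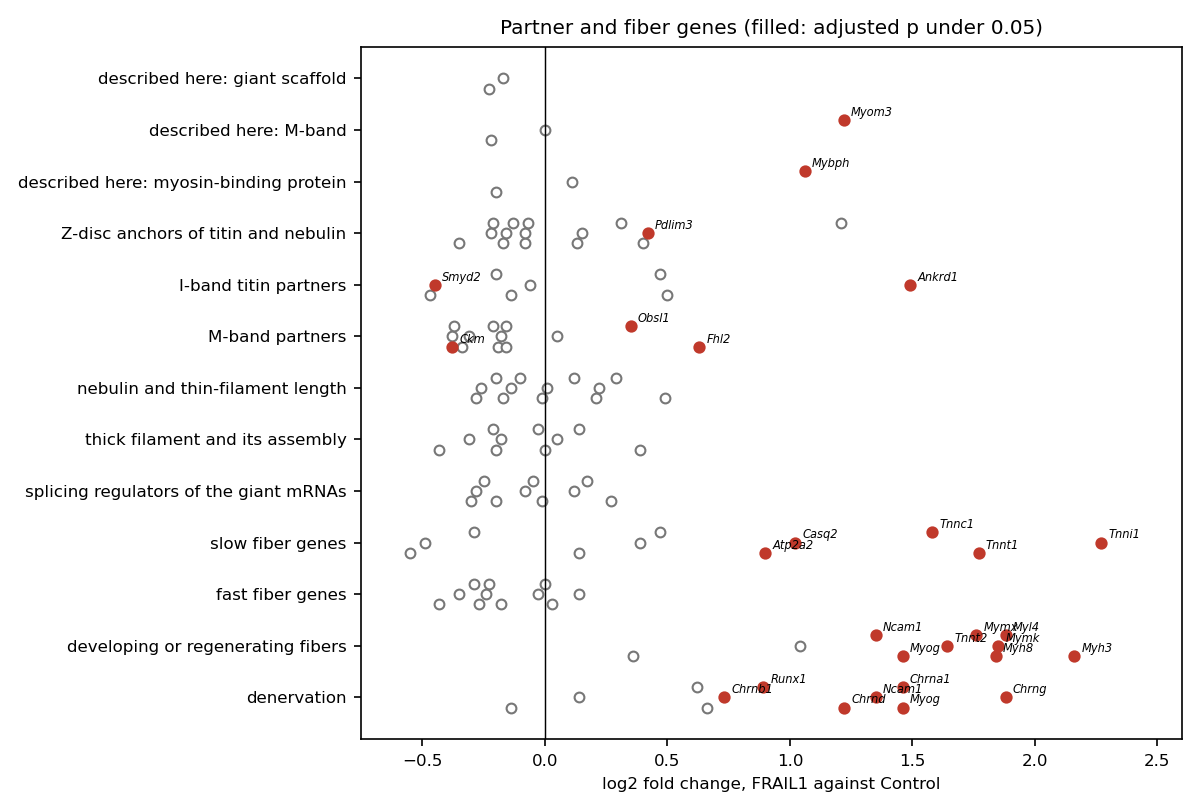
Log2 fold change, *FRAIL1* against Control (x axis), of each tested gene of the lists of members, partners and fiber types (y axis, points spread vertically for legibility), filled red and named where the edgeR adjusted p was under 0.05. *Myom3* and *Mybph* are the only named points among the members, most sarcomere partners lie between -0.5 and 0.5, and the named points of the slow fiber, developing fiber and denervation lists lie to the right.

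Genes of fiber type and of fiber state moved in the same muscles, and their part in the differences of the members was not tested. Of 11 slow fiber genes 5 were higher and 0 lower, led by *Tnnt1* (log2 fold change 1.77), *Atp2a2* (0.90) and *Tnni1* (2.27), with edgeR adjusted p-values of 0.00526, 0.00770 and 0.00817, and the median of the list was 0.47 (0.65 without *FRAIL1* muscle 5). Of the list 3 genes had lower means, *Myh7b* (log2 fold change -0.55, edgeR adjusted p = 0.111, lower in 6 of 6 mice), *Myl3* (-0.49) and *Pln* (-0.29), of which none was called. With the mouse as a block 4 were higher and 0 lower. The summed level of the 11 was 288 to 434 CPM in Control and 381 to 1012 CPM in *FRAIL1* muscles. The slow myosin gene *Myh7* was low, at 3.21 and 4.22 CPM, and was not called (edgeR adjusted p = 0.696), and it and the genes with lower means are named here after their values were seen. None of 11 fast fiber genes was called by edgeR, 6 had an unadjusted p under 0.05, and DESeq2 and limma voom each called 6. Lower calls numbered 2 with the mouse as a block and 2 without *FRAIL1* muscle 5. The smallest edgeR adjusted p was that of *Tnni2*, the fast troponin I (0.0525). Of the list 8 had lower means, and its median was -0.23, beside -0.20 for *Mybpc2* and 0.00 for *Myom2*, the members of fast fibers. The slow form *Mybpc1* was at 0.11 and *Myom3* at 1.22, beside the slow fiber median of 0.47.

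Of 10 genes of developing or regenerating fibers 8 were higher and 0 lower, with a median of 1.70 (1.37 without *FRAIL1* muscle 5), a summed level of 865 to 1560 CPM in Control and 1344 to 5028 CPM in *FRAIL1* muscles, and the fusion genes *Mymk* (1.85) and *Mymx* (1.76) past the threshold (edgeR adjusted p = 0.00265 and 0.00324). Of 11 denervation genes 7 were higher and 0 lower, led by the acetylcholine receptor gene *Chrna1* (log2 fold change 1.46, edgeR adjusted p = 3.4e-04), with a median of 0.89 and a summed level of 159 to 218 CPM against 310 to 513 CPM. Those lists share *Ncam1* and *Myog*. The log2 fold changes of *Mybph* and *Myom3*, 1.06 and 1.22, lay between the medians of the slow fiber and developing fiber lists.

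Cell types other than muscle were counted as well, and their part was not tested either. None of 10 macrophage genes was called by edgeR, but 7 had an unadjusted p under 0.05, DESeq2 called 6, limma voom 4 and edgeR with the mouse as a block 6. Their sum was 267 to 429 CPM in Control and 330 to 967 CPM in *FRAIL1* muscles, with 9 means higher, and *C1qa* had the smallest edgeR adjusted p (0.0595). Of 8 fibroblast genes 1, the collagen *Col1a2*, was higher (log2 fold change 0.82, edgeR adjusted p = 0.0472), and with the mouse as a block none was (edgeR adjusted p = 0.0642 for *Col1a2*). Of these 8 genes 7 had higher means, 5 had an unadjusted p under 0.05, DESeq2 called 4 and limma voom 3. Their sums were 1224 to 2370 CPM in Control and 2445 to 6218 CPM in *FRAIL1* muscles, and their median of 0.59 was 0.40 without *FRAIL1* muscle 5. Of 7 endothelial genes 1, *Tek*, was called lower (log2 fold change -0.41, edgeR adjusted p = 0.0186). Lower calls numbered 2 with the mouse as a block and 2 without *FRAIL1* muscle 5. All 7 had lower means, with a median of -0.18, and 3 had an unadjusted p under 0.05. DESeq2 and limma voom each called 2 of them. The edgeR test called none of 6 lymphocyte, 5 smooth muscle, 6 Schwann cell and 2 tested cardiac genes, with medians of -0.05, -0.20, -0.22 and -0.13. In these lists 0, 2, 1 and 1 genes had an unadjusted p under 0.05, limma voom called none, and DESeq2 called 1 Schwann cell gene. Of 8 genes of skeletal muscle tissue, 7 had lower means and *Ckm* was called lower, against 2 lower calls with the mouse as a block and 3 without *FRAIL1* muscle 5. Their median was -0.28, beside -0.23, -0.22, -0.20 and -0.17 for *Ttn*, *Myom1*, *Mybpc2* and *Neb*. *Myom2* was at 0.00, and *Mybpc1*, *Mybph* and *Myom3* had higher means. The sum of the list was 165600 to 195800 CPM in Control and 118000 to 175800 CPM in *FRAIL1* muscles. This list shares *Tnni2*, *Myh4*, *Tnnt3*, *Atp2a1* and *Mylpf* with the fast fiber list and *Ckm* with the M-band partners, so their counts and medians are not separate observations.

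Since *Ttn* and *Neb* hold the most exon sequence of the members, the other long transcripts were compared. Among 1142 other genes with a mean of 100 CPM or more, the median log2 fold change was -0.077 for genes under 2 kb of exon, -0.112 from 2 to 5 kb, -0.139 from 5 to 10 kb, -0.116 from 10 to 15 kb and -0.096 at 15 kb or more. The medians did not fall steadily with length, and abundant genes of every length class had a median below 0. *Ttn*, *Neb* and *Myom1* lay below the median of their length class. Over the 1400 other genes with 10 kb or more at any level, the median deviation of a muscle from the mean of all muscles lay between -0.065 and 0.060 on the log2 scale in Control, against -0.053 and 0.043 in *FRAIL1* muscles, with *FRAIL1* muscle 5 at 0.001.

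Of the 15 longest other genes with a mean of 100 CPM or more, 13 had lower means in *FRAIL1* muscles, 2 were called, both lower, and the median log2 fold change was -0.15. *Ryr1*, the calcium release channel (21.84 kb), fell by 0.42 on the log2 scale (edgeR adjusted p = 0.0416), and *Dst*, a cytoskeletal linker (41.16 kb), fell by 0.38 (edgeR adjusted p = 0.0480). The others that are not genes of the sarcomere included *Itsn1* (23.43 kb) at -0.21, *Kmt2d* (19.93 kb) at -0.14, *Huwe1* (23.51 kb) at -0.12, *Ahnak* (19.94 kb) at -0.03, *Wnk1* (22.82 kb) at 0.02 and *Serbp1* (20.12 kb) at 0.06, none of them called. These long genes were chosen after their values were seen.

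**Figure D5:**
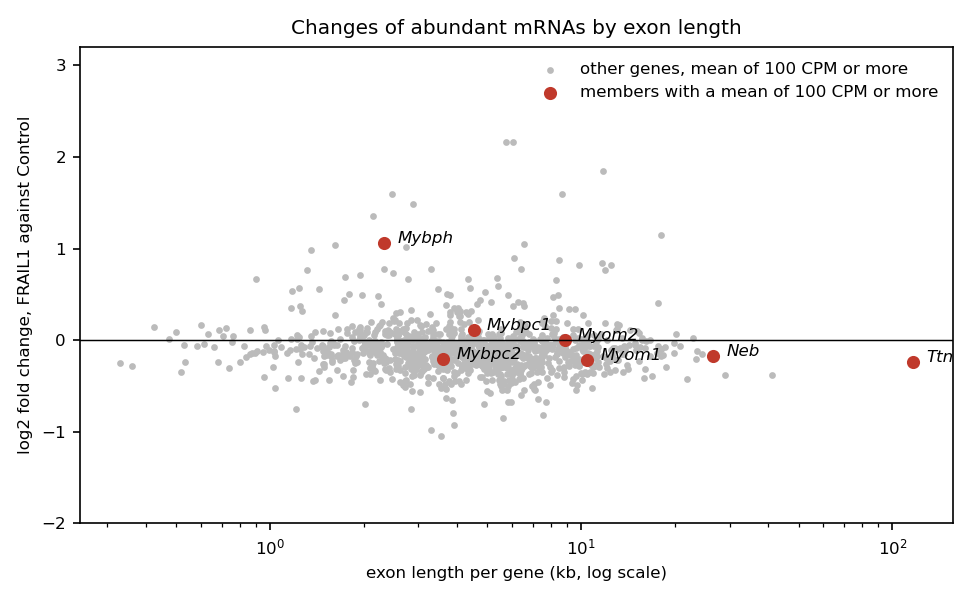
Log2 fold change, *FRAIL1* against Control (y axis), against exon length in kb (x axis, log scale) for the 1142 other genes (grey) and the 7 members (red) with a mean of 100 CPM or more. *Ttn* lies far to the right of all other genes, and *Ttn* and *Neb* lie at about the same height as many shorter genes.

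Taken as a share of all counts, the 8 genes were alike in both groups, at 2.45 ± 0.0614% in Control and 2.45 ± 0.0842% in *FRAIL1* muscles (SD, n = 6). *Ttn* alone took 0.734% and 0.686% on average. The share is of unscaled counts, whereas the CPM values above carry the TMM factors. With total counts as the scale in place of TMM, a choice made after seeing the data, the median log2 fold change of all genes was 0.156 and not 0.010, and *Ttn*, *Neb*, *Myom1* and *Mybpc2* were at -0.10, -0.03, -0.08 and -0.06, all still below 0 and none called. *Mybph* and *Myom3* were at 1.21 and 1.41 and called, and *Mybpc1*, at 0.26, was then called as well (edgeR adjusted p = 0.0327).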

How the data were processed

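RNA-seq counts of 12 TA muscles, 6 Control and 6 *FRAIL1*, were analysed. The deposited values are raw counts of reads per gene. To make them, the authors trimmed paired-end reads of poly(A) RNA with Trimmomatic, mapped them to mm10 with STAR 2.7.8a and counted uniquely mapped reads with featureCounts 2.0.1, without normalization. The annotation release and the strand setting are not given in the sources used here. Of 27179 Gene IDs, 25275 were matched to a symbol and 24861 to an exon length in GRCm38. No 2 libraries of a group were copies (chi-square per degree of freedom of 12.7 or more over 30 pairs). The groups and numbers follow the sample titles, and each muscle is a replicate.

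Genes were filtered with filterByExpr, scaled with TMM and compared without a block in edgeR 4.0.16 (R 4.3.3), by its quasi-likelihood test with robust estimation. The procedure was tested on simulated data. The paper's methods name DESeq2, which was run as an alternative (1.42.0). Other alternatives were the mouse as a block, 4 other scalings, 2 other filters, limma 3.58.1 voom, a fit that was not robust, and each muscle or both muscles numbered 5 left out. Total counts as the scale was added after seeing the data.

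The study took both muscles of a mouse, and the labels do not say that the numbers mark mice. Deviations from the group means over 15502 genes correlated at 0.236, 0.155, 0.264, 0.245, 0.0479 and 0.176 between the muscles numbered 1 to 6, and at -1.3e-05 on average between muscles of different numbers. The numbers were therefore read as mice, with number 5 the least certain.

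The 8 genes and the 18 lists of other genes were chosen with earlier results of these data known. Named besides the 8 were the 3 genes with the highest correlation to each, called genes of partner lists (otherwise the gene with the smallest p), and up to 3 genes of fiber and cell type lists. 1 gene that this rule names is not reported here. Promoter sequences come from RefSeq (GRCm38.p6). Exon usage was not analysed here.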

Additional observations from a re-analysis of the deposited data

Results flagged for a closer look

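Among 26 groups of 6 muscles that were checked for a value apart from the others (8 levels, 5 ratios, 2 groups each), 2 held one by Dixon's test, and chance gives about 1 in 20. In both it was *FRAIL1* muscle 5. Its *Myom3* level was 184 CPM, with the nearest at 96.6 CPM, so that the gap took 0.675 of the range of the group. Its log2 ratio of *Neb* to *Ttn* was -0.63, with the nearest at -0.78, and the gap took 0.628 of the range. *FRAIL1* muscle 5 also lay farthest out on the first principal component, at 61.4. Its part in these values was not tested.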

How the results depend on the processing

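The rise of *Mybph* (log2 fold change 0.96 to 1.21, adjusted p up to 0.0227) and the rises of the *Mybph* to *Mybpc2* and *Myom3* to *Myom2* ratios passed the threshold in all 24, 15 and 15 alternatives. With the replicate block (the mouse), edgeR called 14.1% of all genes tested and 1 of the 8 in place of 2. There *Myom3* was lost (1.14, adjusted p = 0.0704). *Myom3* was also lost without the filter (1.22, 1 of the 8 called, with 758 calls over all genes). The same held without both muscles numbered 5 (0.87, 1 of the 8 called, with 871 calls over all genes). Leaving out 1 muscle gave it 0.91 to 1.34. The number of the 8 called was then between 1 and 4, with 1 wherever *Myom3* was lost. It was 4 without *FRAIL1* muscle 3, when *Ttn* and *Myom1* were called as well. That fit had 2110 calls over all genes, the most of the fits with 1 muscle left out. The DESeq2 Wald test with the block called 5 of the 8, with 2898 calls over all genes. For limma voom it was 4 of the 8, beside 11.8% of all genes tested.

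Lower levels came past the threshold in some alternatives. *Ttn* did so in DESeq2 without (-0.24) and with the block (-0.25) and in voom (-0.22), and lay at -0.28 to -0.17 with 1 muscle left out. *Myom1* did so in DESeq2 with the block (-0.23) and in voom (-0.20), and lay at -0.26 to -0.16, and *Neb* in DESeq2 with the block (-0.18). *Mybpc1* was called with total counts alone (0.26), and *Mybpc2* in none. The sign of *Myom2* turned with the block (-0.00057), with DESeq2's size factors (-0.0043), and in DESeq2 without (-0.0043) and with the block (-0.0075). With 1 muscle left out *Myom2* lay between -0.050 and 0.040. Among ratios, the sign-flip test over mice, which stands for the replicate block, put *Mybpc1* to *Mybpc2* (0.33), *Myom1* to *Myom2* (-0.23) and *Neb* to *Ttn* (0.069) past the threshold (exact p = 0.0313), and with 1 muscle left out the latter pair ranged over -0.27 to -0.17 and 0.040 to 0.087.

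Over all genes the count of calls was 974, against 2186 with the block, 2232 in DESeq2, 2898 in DESeq2 with the block, 1836 in voom and 2627 with total counts, of which 2480 were higher and 147 lower. It was 364 to 2110 with 1 muscle left out, lowest without *FRAIL1* muscle 1 and highest without *FRAIL1* muscle 3. The cause of these shifts was not tested. Each member had 1331 or more counts in every muscle.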
